A study of Mus musculus with 6 samples.

Results

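The genes described are 8 members of the ADP-ribosyltransferase (Parp) family and the ubiquitin ligase gene Dtx3l, taken by symbol from the counts table. All 9 were found among its 55401 genes and all 9 were among the 14661 genes with enough counts to be tested. They form 3 sets. These are the interferon-linked Parp9, Parp10, Parp11, Parp12 and Parp14, next Dtx3l (the partner of Parp9), and Parp1 to Parp3, which act at DNA breaks. The cells were ADC106, a mouse line from angiosarcoma, a tumour of vessel-lining cells, transfected with a microRNA mimic, a synthetic copy of a short regulatory RNA. The NC group received the mimic labelled NC (genotype WT in the labels) and the other group a miR-497 mimic (genotype miR-497 overexpression). Both received 12.5 nM, both were collected on day 3, and each had 3 libraries of poly(A) RNA. Nothing in the labels says that the libraries came from separate cultures, so p-values measure the spread between these libraries, which may be technical, and all come from 1 cell line. Untransfected cells were not analysed here.

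ADP-ribosyltransferases take ADP-ribose from NAD and attach it to proteins or nucleic acids. Parp1 and Parp2 build chains of it at broken DNA and so recruit repair factors, whereas most other members attach single units. Several of the latter are interferon-stimulated genes, switched on by a transcription factor complex that includes Stat2 and Irf9, downstream of the interferon receptor, and have antiviral roles. The Parp9 protein forms a heterodimer with Dtx3l, which attaches ubiquitin to histones and other substrates.

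The guide strand of the mouse microRNA is shown with its seed (bases 2 to 8) in capitals, since the seed is what a target site pairs with; the labels do not give the sequence of the mimic used. The RefSeq entry (GRCm38.p6) lies on chr11:70234730-70234751, plus strand.
mmu-miR-497a-5p: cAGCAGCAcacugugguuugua
Only 2 of the 9 genes had a 7-base or 8-base match to this seed in the longest annotated 3′ UTR, and both are shown with the match in capitals and the flanking bases in lower case.
Parp11, 8mer, 624 bases after the stop codon: gagctgagcacTGCTGCTAagggtcactag
Parp14, 7mer-m8, 1234 bases after the stop codon: agataagtgtgTGCTGCTtcagaagttatc
Over all 12860 tested genes with a 3′ UTR, 28.1% had such a match, counting also a match to bases 2 to 7 followed by an A. The Parp11 match was absent from that gene's shortest 3′ UTR of 922 bases, while the Parp14 match was also in the shortest. No match of these kinds was found in the other 7 genes, whose 3′ UTRs ran from 107 bases (Parp2) to 2788 bases (Dtx3l). Parp3 held 1 shorter seed match, a kind not counted here.

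Library totals ranged from 25777676 to 36159499 counts. All pairs of libraries differed by more than sampling noise, with a chi-square per degree of freedom of 7.64 to 11.8 within groups and 92.0 to 112 between them. All 12 endothelial markers examined were detected, at a summed 9773 to 10460 CPM (counts scaled to a common library size) with NC and 9223 to 9728 with miR-497. They did not move together: 6 were called higher, 4 lower and 2 not called, with log2 fold changes from -0.94 to 1.03. Of all tested genes, 23.8% were higher and 26.0% lower. Of 9 leukocyte markers, 2 (Cd3e and Itgam) had no count in any library, Ptprc averaged 0.156 CPM with NC and 0.185 with miR-497, and the summed level was 10.4 to 11.2 CPM with NC and 16.3 to 22.1 with miR-497. Most of that sum was Cd68, a lysosomal protein abundant in macrophages, at 8.26 CPM with NC and 17.5 with miR-497 (log2 fold change 1.08, called higher); the other 3 tested leukocyte markers were not called. Summed fibroblast and mural markers were at 317 to 337 CPM with NC and 504 to 599.8 with miR-497. Of these 8 markers, Col1a1, Col1a2 and Acta2 were called higher and Pdgfrb lower, from 52.8 to 40.8 CPM. Pdgfra and Rgs5 were not called, and Dcn and Lum had too few counts to be tested. Mitochondrial genes took 2.03% to 2.15% of counts with NC and 2.94% to 3.77% with miR-497. The part of these shifts in the results was not tested.

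All 5 interferon-linked Parp genes were lower with miR-497, each by at least 2-fold, with a median log2 fold change of -1.71 against -0.02 over all tested genes. Of all tested genes, 26.0% were lower at an edgeR adjusted p under 0.05 and 5.19% were lower by at least 2-fold. In each of the 5 genes the 3 miR-497 libraries lay below the 3 NC libraries, an arrangement seen in 29.6% of all tested genes. The reverse arrangement, in 27.8% of tested genes, was seen in 0 of the 9. In bulk RNA, fewer cells with a transcript and less transcript per cell cannot be told apart.

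**Figure D1:**
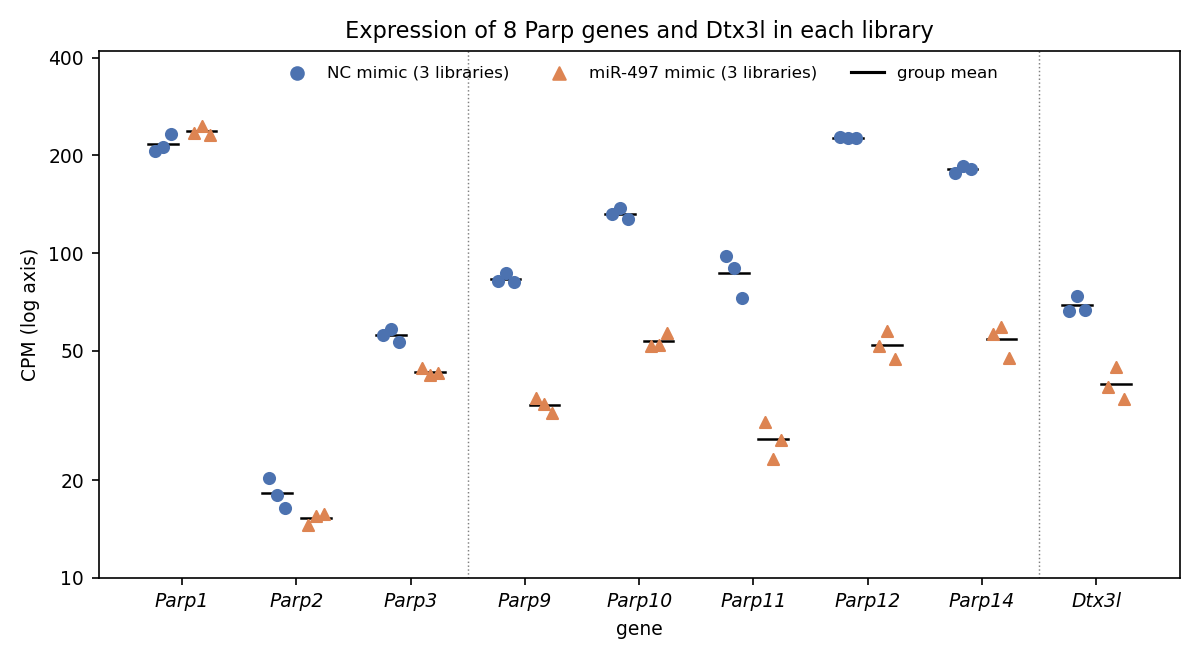
CPM of each gene (log axis) in the 3 NC libraries (circles) and the 3 miR-497 libraries (triangles), with the group mean as a line; dotted lines separate Parp1 to Parp3, the interferon-linked Parp genes and Dtx3l. The groups are far apart for Parp9 to Parp14 and overlap for Parp1, with NC means of 227 CPM for Parp12 and 217 CPM for Parp1 but miR-497 means of 52.2 and 237 CPM.

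Parp12 (ENSMUSG00000038507, GRCm38 chr6:39086410-39118349, minus strand) encodes a zinc-finger protein that adds single ADP-ribose units and restricts some RNA viruses. In library order 1 to 3 its CPM was 227, 227 and 226 with NC, against 51.8, 57.7 and 47.2 with miR-497. The NC libraries were nearly identical and every miR-497 value lay far below them. The fall was 4.33-fold, a log2 fold change of -2.12 (SE 0.0657, adjusted p = 3.1e-13 by edgeR), placing Parp12 at rank 156 from the lowest log2 fold change among 14661 genes.

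Parp14 (ENSMUSG00000034422, chr16:35832874-35871544, minus strand) encodes a large macrodomain protein known from Stat6 signalling. It had 176, 185 and 182 CPM with NC and 56.5, 59.2 and 47.6 CPM with miR-497. The groups were well apart, with miR-497 library 3 the lowest. The log2 fold change was -1.73 (SE 0.0700, adjusted p = 8e-12 by edgeR), or 3.33-fold lower.

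Parp11 (ENSMUSG00000037997, chr6:127446840-127494261, plus strand) encodes a mono-ADP-ribosyltransferase found at the nuclear envelope. Its level was 97.9, 90.0 and 72.8 CPM with NC and 30.2, 23.3 and 26.5 CPM with miR-497. NC library 3 was the lowest of its group, and the replicates were more spread than for the other 4 genes in NC (coefficient of variation 14.7%). The fall of 3.27-fold (log2 fold change -1.71, SE 0.105, adjusted p = 1.1e-09 by edgeR) lay close to that of Parp14. Parp11 and Parp14 are the genes with a seed match, and Parp12 has none. Over the 12860 tested genes with a 3′ UTR the median log2 fold change was -0.17 with a match and 0.02 without. The part of the matches in these falls was not tested.

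Parp10 (ENSMUSG00000063268, chr15:76231174-76243441, minus strand), a mono-ADP-ribosyltransferase first described as a Myc partner, stood at 132, 138 and 127 CPM with NC. With miR-497 it stood at 51.6, 52.2 and 56.6 CPM. Both groups were tight and clearly separated, with a log2 fold change of -1.31 (SE 0.0600, adjusted p = 3.6e-11 by edgeR), or 2.47-fold lower. In the annotation 205 exon bases of Parp10 are shared with Plec, an abundant gene on the same strand at 794 CPM with NC and 676 CPM with miR-497, and how reads in shared bases were assigned is not given in the sources used here.

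Parp9 (ENSMUSG00000022906, chr16:35938470-35972605, plus strand) encodes a macrodomain protein that works with Dtx3l. Its CPM was 82.2, 86.7 and 81.4 with NC and 35.8, 34.3 and 32.2 with miR-497. Every NC value lay well above every miR-497 value, and the log2 fold change of -1.29 (SE 0.0665, adjusted p = 1.4e-10 by edgeR) or 2.45-fold lower, was nearly that of Parp10. Across 13 alternative analyses the log2 fold changes of the 5 genes stayed between -2.19 (Parp12) and -1.24 (Parp9), and all remained past the threshold.

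Dtx3l (ENSMUSG00000049502, chr16:35926511-35939151, minus strand) fell too, by 1.74-fold against 2.45-fold for its partner Parp9. It had 66.2, 74.0 and 66.8 CPM with NC and 38.7, 44.6 and 35.6 CPM with miR-497, again without overlap (log2 fold change -0.80, SE 0.0820, adjusted p = 4.5e-07 by edgeR). The ratio of Dtx3l to Parp9 counts was 0.806, 0.853 and 0.822 with NC, against 1.08, 1.30 and 1.10 with miR-497, so the ratios of the groups did not overlap; the difference between the genes' falls was not tested. Their first exons overlap on opposite strands: 458 exon bases are shared, 9.4% of those of Parp9 and 8.0% of those of Dtx3l. The strand setting of the counting is not given in the sources used here, so reads of this stretch cannot be placed on either gene with certainty, and their part in the ratio was not tested.

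Parp1, Parp2 and Parp3 had log2 fold changes from -0.38 to 0.13 and a median of -0.26. Parp2 and Parp3 were lower at an adjusted p under 0.05. None of the 9 genes was called higher in the main edgeR fit, DESeq2 or limma voom. In the main edgeR fit 23.8% of all tested genes were higher. At an unadjusted p under 0.05 in that fit, 1 of the 9 (Parp1) was higher.

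Parp1 (ENSMUSG00000026496, chr1:180568924-180601254, plus strand), the main source of ADP-ribose chains at DNA breaks, had 206, 212 and 233 CPM with NC and 235, 246 and 230 CPM with miR-497. The groups overlapped, since NC library 3 lay above miR-497 library 3. Its log2 fold change was 0.13 (SE 0.0565, adjusted p = 0.0738 by edgeR). Without NC library 3 the value was 0.19 and passed the threshold (adjusted p = 0.0162 by edgeR), as it did with upper-quartile scaling (0.17, adjusted p = 0.00916 by edgeR).

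Parp3 (ENSMUSG00000023249, chr9:106470322-106476949, minus strand), which acts in double-strand break repair, had 56.0, 58.3 and 53.3 CPM with NC and 44.2, 42.1 and 42.6 CPM with miR-497. The difference was small but well above the spread in either group (log2 fold change -0.38, SE 0.0665, adjusted p = 0.00014 by edgeR). Only 20 of its exon bases overlap an opposite-strand gene, Rrp9, which was higher with miR-497 (log2 fold change 0.25).

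Parp2 (ENSMUSG00000036023, chr14:50807841-50821301, plus strand), which shares the break-sensing role of Parp1, was the least abundant of the 9 in CPM. Its values were 20.2, 18.1 and 16.4 CPM with NC and 14.6, 15.5 and 15.8 CPM with miR-497, so the lowest NC value lay just above the highest miR-497 value. The log2 fold change of -0.26 (SE 0.0994, adjusted p = 0.0414 by edgeR) did not hold as a call in every fit. Its adjusted p was 0.0993 in DESeq2 and 0.0517 in limma voom. In edgeR it was 0.178 without NC library 1 and 0.0820 without NC library 2. Without miR-497 library 1, 2 or 3 it was 0.118, 0.0834 and 0.0503. Without NC library 3 it was 0.0236, so the call held. The call also held in edgeR with DESeq2 size factors (0.0496), no filter (0.0425) and a mean count of at least 50 (0.0466).

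Levels of different genes were compared per length, as RPKM (CPM per kilobase of annotated exon). With NC, Parp12 had the highest level at 56.7 ± 0.215 RPKM (SD, n = 3), followed by Parp1 at 41.0 ± 2.64 and Parp10 at 30.9 ± 1.31. Parp14 (19.4 ± 0.489), Parp9 (17.1 ± 0.589) and Parp3 (15.1 ± 0.669) came next without overlap between neighbours, then Parp11 (12.4 ± 1.82) and Dtx3l (12.1 ± 0.751), whose libraries overlapped, and Parp2 at 5.03 ± 0.525 RPKM.

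With miR-497 the order was headed by Parp1 at 44.8 ± 1.47 RPKM (SD, n = 3). Parp12 (13.1 ± 1.32), Parp10 (12.5 ± 0.628) and Parp3 (11.6 ± 0.298) followed; the libraries of Parp12 overlapped those of both others, while those of Parp10 lay above those of Parp3. Parp9 (7.002 ± 0.363), Dtx3l (6.92 ± 0.801) and Parp14 (5.85 ± 0.654) formed a run in which neighbours overlapped, as did Parp2 (4.21 ± 0.175) and Parp11 (3.80 ± 0.495). With the longest annotated transcript as the length, Parp11 moved above Parp3 in NC and above Parp2 in miR-497, and the rest of either order was kept.

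**Figure D2:**
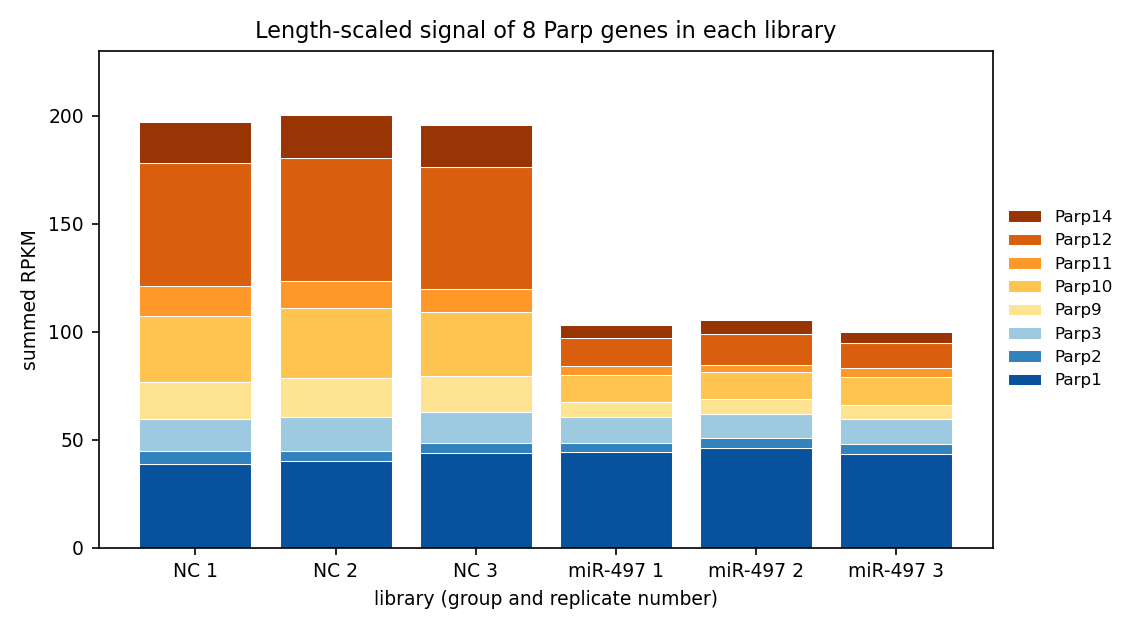
Summed RPKM of 8 Parp genes in each library, stacked by gene, with Parp1 to Parp3 in blue and Parp9 to Parp14 in yellow to brown. The blue part is alike in all 6 libraries, at 59.4 to 63.0 RPKM, and the upper part is at 133 to 140 RPKM with NC and 40.5 to 43.4 RPKM with miR-497.

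The make-up of these 8 Parp genes, chosen with earlier results known, differed between the groups. Other measured family members were left out of the sums. Among them were Tnks2, at a mean of 39.5 RPKM with NC and 43.9 with miR-497, and Zc3hav1, at 39.7 and 21.7. The 8 Parp genes summed to 197, 200.3 and 196 RPKM with NC, against 103, 105 and 99.96 RPKM with miR-497. Parp9 to Parp14 supplied 69.7%, 69.7% and 67.8% of that sum with NC and 41.5%, 41.2% and 40.6% with miR-497. Parp1 alone supplied 19.8%, 19.99% and 22.5% with NC and 43.0%, 44.0% and 43.6% with miR-497. The summed level of Parp1 to Parp3 was 59.7, 60.8 and 63.0 RPKM with NC, against 60.3, 62.0 and 59.4 RPKM with miR-497, with the groups overlapping.

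Parp14, Dtx3l and Parp9 lie in this order on chromosome 16, with 54966 bases between Parp14 and Dtx3l, while Dtx3l and Parp9 are transcribed away from a shared start region. The nearest tested genes outside the 3 were not called: Hspbap1, 4396 bases from Parp14, had a log2 fold change of 0.13 (SE 0.0933, adjusted p = 0.261 by edgeR), and Kpna1, 6144 bases from Parp9, had 0.14 (SE 0.0647, adjusted p = 0.0793 by edgeR). Dirc2, beyond Hspbap1, was higher (log2 fold change 0.93, adjusted p = 1.8e-08 by edgeR), and Fam162a (0.00, SE 0.0689) and Ccdc58 (-0.08, SE 0.0757) beyond Kpna1 were not called. Farther out, 282 kb from the Dtx3l start, the weakly expressed 2010005H15Rik was also lower (0.802 CPM with NC and 0.114 with miR-497, log2 fold change -2.78, SE 0.620, adjusted p = 0.00123 by edgeR). Beyond it, the weakly expressed BC117090 was higher (0.315 CPM with NC and 0.835 with miR-497, log2 fold change 1.398, SE 0.508, adjusted p = 0.0307 by edgeR).

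**Figure D3:**
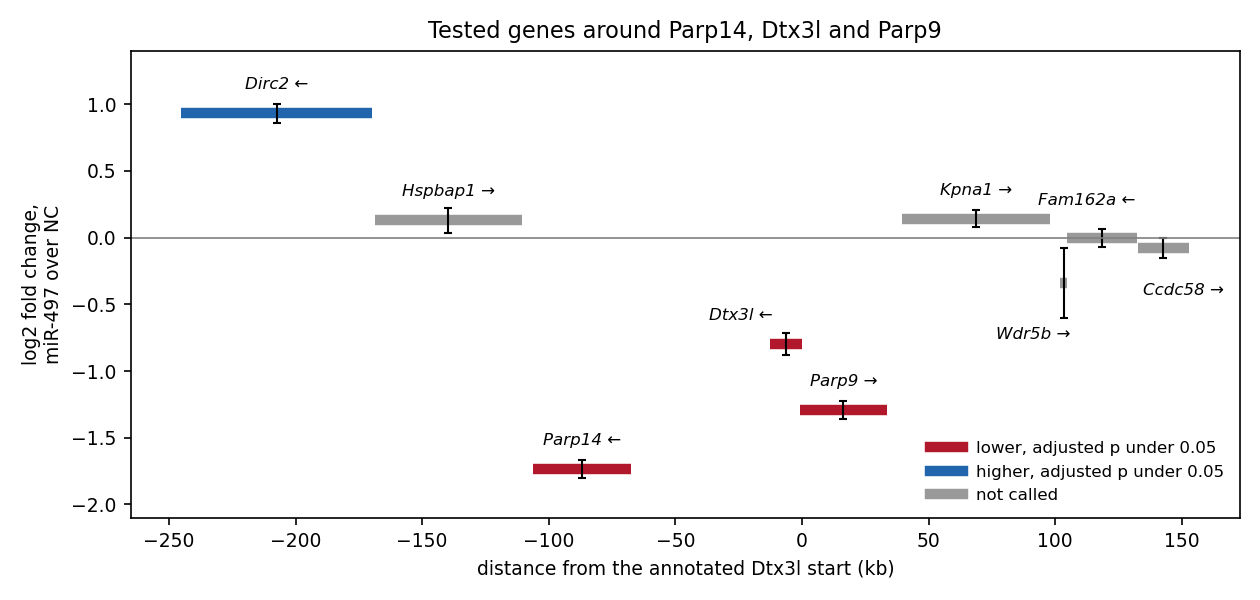
Log2 fold change (miR-497 over NC) of tested genes against distance from the annotated Dtx3l start in kb; horizontal bars span the genes, vertical bars are 1 standard error, and arrows give the direction of transcription. Parp14 (-1.73), Parp9 (-1.29) and Dtx3l (-0.80) are the genes called lower among those drawn, which end with Dirc2 on one side and Ccdc58 on the other, and Hspbap1 and Kpna1 on either side lie at 0.13 and 0.14.

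RefSeq promoter windows (GRCm38.p6, 250 bases before to 50 after the start) were matched for 6 of the 9 genes: Parp1, Parp2, Parp3, Parp11, Parp12 and Dtx3l. The interferon-response motif (GAAA, any 2 bases, then GAAA; both strands) and the gamma-activated motif (TTC, any 3 bases, then GAA, which reads alike on both strands) were searched for. The first was present in 3.44% and the second in 8.30% of all 32851 windows. Among the 6 genes only the upstream one of 2 Parp11 windows held either. It held both, overlapping by 3 bases, and they are in capitals here, where the stretch before the annotated start is shown (chr6:127446590-127446839, plus strand).
Parp11: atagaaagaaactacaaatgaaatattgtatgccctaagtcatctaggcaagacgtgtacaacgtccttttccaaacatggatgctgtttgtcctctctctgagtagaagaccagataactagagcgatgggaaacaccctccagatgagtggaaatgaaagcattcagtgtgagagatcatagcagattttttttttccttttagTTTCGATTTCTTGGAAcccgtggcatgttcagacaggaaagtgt
For Dtx3l the stretch of the window outside annotated exons is shown (chr16:35939207-35939277, minus strand), and it held neither motif. This stretch lies before the annotated Dtx3l start (35939151) and past the Parp9 first exons near it, which end by 35939206. No Parp9 window was searched, so the absence of both motifs is not shown for Parp9.
Dtx3l: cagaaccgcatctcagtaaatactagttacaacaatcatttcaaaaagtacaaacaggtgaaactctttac

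Calls in the rest of the family and its pathway went in both directions, and their counts stand beside 26.0% lower and 23.8% higher among all tested genes. Of 8 other intracellular ADP-ribosyltransferases, 2 were lower, 3 higher and 3 not called, with a median log2 fold change of -0.03 against -0.02 over all tested genes. Zc3hav1, the antiviral zinc-finger protein also known as Parp13, which binds viral RNA and has no catalytic activity, was lower, from 259 ± 3.60 CPM to 142 ± 8.43 CPM (n = 3, SD; log2 fold change -0.87, SE 0.0548, adjusted p = 1.5e-09 by edgeR). Its fall was near that of Dtx3l. Parp6 was higher, from 10.2 ± 1.36 to 16.8 ± 2.45 CPM (log2 fold change 0.72, SE 0.127, adjusted p = 0.00016 by edgeR).

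Among 9 genes that remove or read ADP-ribose, 1 was lower, 2 were higher and 6 were not called, with a median of 0.06. Macrod2, a hydrolase of single ADP-ribose units, was higher (20.7 ± 1.499 and 31.2 ± 1.97 CPM; log2 fold change 0.59, SE 0.0838, adjusted p = 1.7e-05 by edgeR), and H2afy, a histone variant with a macrodomain, was lower (log2 fold change -0.33, SE 0.0670, adjusted p = 0.00049 by edgeR).

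Of 8 repair partners of Parp1 to Parp3, 5 were higher and 1 lower, with a median of 0.21. The 5 higher calls were weak as a count, dropping to 3 in DESeq2 and limma voom and to 2 or 3 without any 1 library. Polb, the gap-filling polymerase of base excision repair, was higher (log2 fold change 0.43, SE 0.0947, adjusted p = 0.00106 by edgeR), and Hpf1, the factor that directs Parp1 and Parp2 to serine, was lower (-0.26, SE 0.0736, adjusted p = 0.00779 by edgeR).

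None of the other Deltex ligases was called lower: of 3 tested, 2 were higher and 1 was not called. Dtx4 went from 1.06 ± 0.772 to 4.18 ± 0.599 CPM (n = 3, SD; log2 fold change 2.00, SE 0.370, adjusted p = 0.00024 by edgeR) and Dtx3 from 20.9 ± 1.94 to 26.7 ± 2.75 CPM (log2 fold change 0.35, SE 0.0956, adjusted p = 0.00536 by edgeR). Dtx2 had a log2 fold change of -0.10 (adjusted p = 0.234 by edgeR). Its miR-497 libraries all lay below its NC libraries, as in 29.6% of all tested genes. Dtx1 had too few counts to be tested.

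Of 7 genes of NAD supply, 1 was lower, 2 were higher and 4 were not called, with a median of 0.06. Nampt, the rate-limiting enzyme of NAD salvage, was lower, from 138 ± 3.28 to 87.9 ± 1.13 CPM (n = 3, SD; log2 fold change -0.65, SE 0.0512, adjusted p = 2.1e-08 by edgeR). Nadsyn1, which makes NAD from its acid precursor, was higher, from 4.68 ± 0.435 to 7.73 ± 0.983 CPM (log2 fold change 0.73, SE 0.162, adjusted p = 0.00124 by edgeR). The count of higher genes was 1 without NC library 2.

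Of 11 genes of interferon receptor and Stat signalling, 5 were lower, 4 higher and 2 not called, with a median of -0.05. Of the complex that drives interferon-stimulated genes, Stat2 was lower, from 161 ± 11.8 to 40.5 ± 1.45 CPM (log2 fold change -1.99, SE 0.0646, adjusted p = 5.1e-13 by edgeR), as was Irf9, from 98.9 ± 3.31 to 42.8 ± 5.70 CPM (-1.21, SE 0.0798, adjusted p = 2.5e-09 by edgeR). Irf7, an inducible amplifier of the response, had a log2 fold change of -2.87 (SE 0.0971, adjusted p = 8.3e-13 by edgeR). Jak2, a receptor-bound kinase of interferon gamma signalling, was lower from 167 ± 4.68 to 84.6 ± 2.57 CPM (log2 fold change -0.98, SE 0.0518, adjusted p = 1.8e-10 by edgeR), as was Irf1 (-0.54, SE 0.0793, adjusted p = 2.5e-05 by edgeR). The 4 receptor chain genes, Ifnar1, Ifnar2, Ifngr1 and Ifngr2, were higher, with log2 fold changes of 0.18, 0.36, 0.30 and 0.36. The falls of the 5 interferon-linked Parp genes lay in the range from Irf9 to Irf7 and were larger than those of Jak2 and Irf1. The part of these signalling genes in the Parp falls was not tested.

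**Figure D4:**
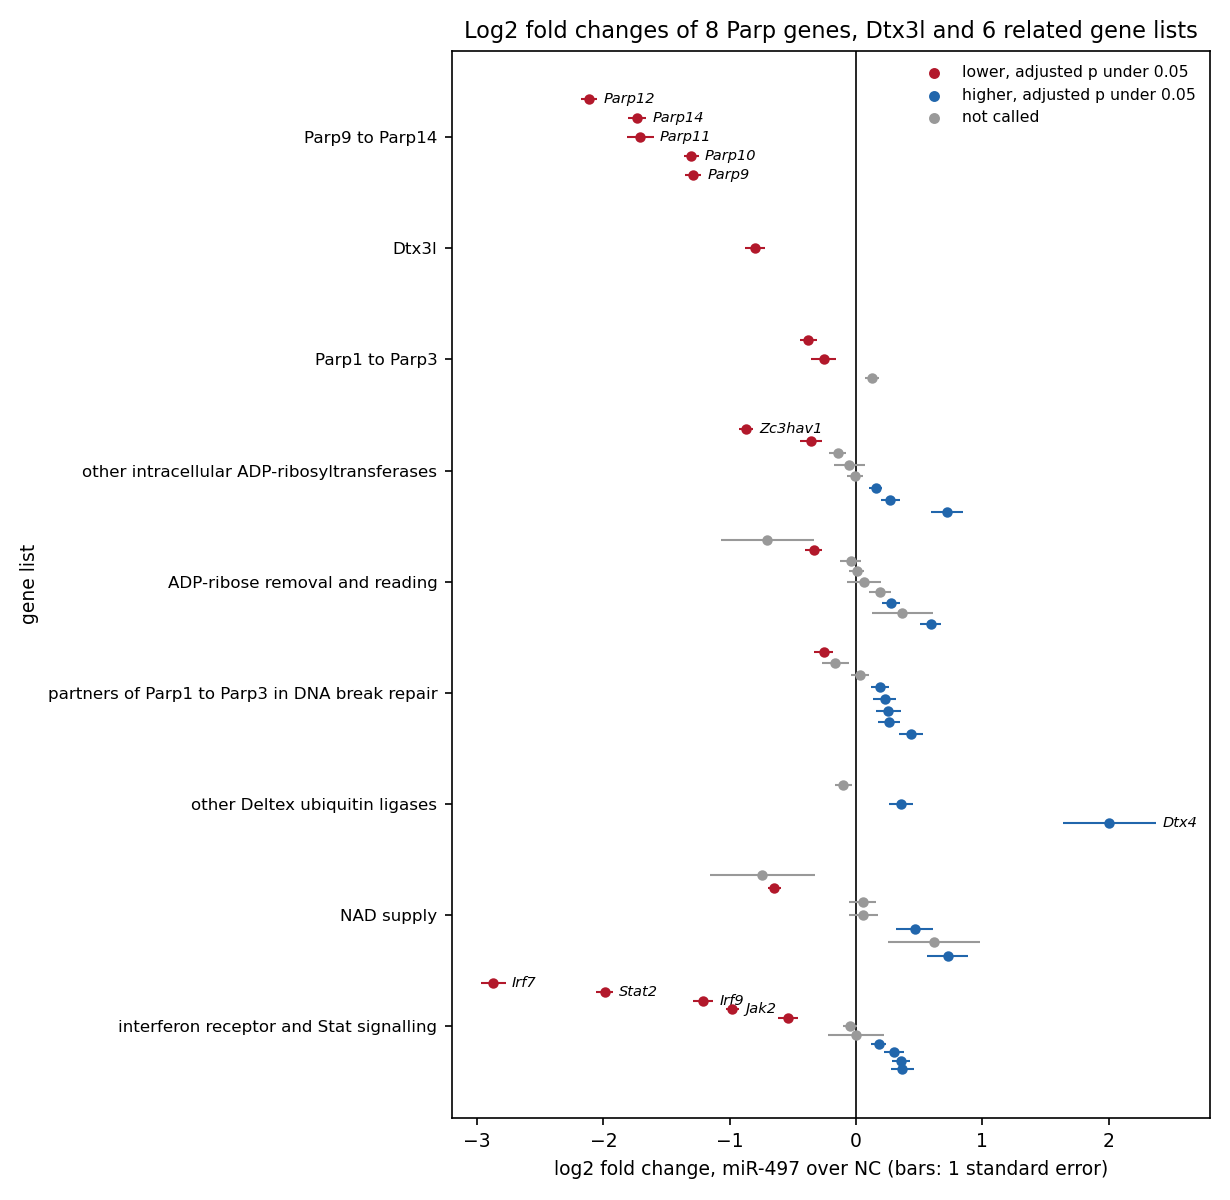
Log2 fold change (miR-497 over NC) of each tested gene, with bars of 1 standard error, for the 3 sets of members and 6 related lists; red is lower and blue higher at an adjusted p under 0.05, and grey is not called. All 5 genes of Parp9 to Parp14 lie between -2.12 and -1.29, as do Stat2 and no gene of the other ADP-ribosyltransferase, ADP-ribose removal, repair, Deltex or NAD lists.

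The genes whose log2 CPM followed Parp9 most closely over the 6 libraries were Ncoa7 (Pearson r = 0.9998), 1500011B03Rik (0.9996), Cd47 (0.9996), Gbp2 (0.9995) and Klc2 (0.9994), out of 14660 genes compared. These correlations are descriptions over 6 libraries that share the group difference. All 5 were lower with miR-497, a direction largely fixed by choosing them for their correlation with Parp9 over the same libraries. Their log2 fold changes ran from -2.66 (Gbp2, an interferon-induced GTPase) to -0.60 (1500011B03Rik). Dtx3l, the neighbour and partner of Parp9, ranked 1103 with r = 0.975.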

How the data were processed

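Poly(A) RNA was sequenced from 3 NC and 3 miR-497 libraries. The deposited values are raw counts of reads per gene, which the authors had not normalized. The submitters' processing notes name STAR 2.5.4b, featureCounts, Subread 1.6.1, edgeR 3.32.1 and the build GRCm38, without their roles; annotation release, strand setting and treatment of multiply aligned reads are not given in the sources used here. Symbols and coordinates came from GENCODE M21 on the same build, which matched 55141 of 55401 identifiers.

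Genes passing filterByExpr (minimum count 10, minimum total 15) were scaled by TMM and tested over the whole table with the quasi-likelihood F-test of edgeR 4.0.16 in R 4.3.3, with group as the only term, 2-sided, and Benjamini-Hochberg adjustment over all 14661 genes at 0.05. A standard error is the log2 fold change divided by the square root of F. CPM uses TMM-scaled library sizes, log2 CPM a prior count of 2, and RPKM the union of annotated exons. The fitting code was tested on simulated data. The members and lists were chosen with earlier results of these data known, so no list was tested. Of the listed genes, 1 interferon-signalling gene and 1 leukocyte marker are not reported here and were left out of their lists' counts. Named were all members; in each pathway list (not the marker lists), genes past the threshold with an absolute log2 fold change of at least 1 and, beyond those, the 2 with the smallest p; the 5 genes most like Parp9; and neighbours. The gamma-activated motif was added after the data were seen. So was the choice for naming of Ptprc, Cd68, Tnks2, 2010005H15Rik, BC117090, the fibroblast and mural markers, the receptor chains and the markers at 0. Alternatives were DESeq2 size factors, upper-quartile scaling, no filter, a mean count of at least 50, DESeq2 1.42.0, limma 3.58.1 voom, a replicate block, each library left out, another gene length and the shortest 3′ UTR.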

Additional observations from a re-analysis of the deposited data

How the results depend on the processing

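Each of the 9 log2 fold changes was recomputed under 13 alternatives and none changed direction. Parp3, Dtx3l and the 5 interferon-linked Parp genes stayed past the threshold in all 13. For Parp1, which was not called, the log2 fold change passed the threshold with upper-quartile scaling (0.17) and with a mean count of at least 50 (0.14), so that 1 member was then called higher; the 6 fits that left out 1 library gave 0.0805 to 0.19 for Parp1 and 0 to 1 members called higher. For Parp2 the call was lost with upper-quartile scaling (-0.21), DESeq2 (-0.24), limma voom (-0.25) and the replicate block (-0.25), and leaving out 1 library gave -0.31 to -0.19. The cause was not tested. Members called lower numbered 7 or 8 throughout. The pairing check, correlating how libraries with equal numbers departed from group means, gave -0.12, -0.04 and -0.13. No positive correlation was seen. The check cannot decide whether such libraries were handled together, since departures within each group are tied to a shared mean. With the block, 3177 genes were higher and 3563 lower, against 3490 and 3817 without it. Over all alternatives these counts ran from 3029 to 3998 and from 3374 to 3995. Repair partners called higher numbered 2 without the filter and with the block, against 5. RPKM levels were higher for every member with the longest transcript as the length, and Parp11 lost its seed match in the shortest 3′ UTR. Parp2 had the lowest counts of the 9 genes, and neither its small difference nor that of Parp1 was called steadily with 3 libraries a group.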
